A study of Mus musculus with 26 samples.

Results

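The Sp100 family is a group of nuclear proteins that was described here through 4 genes, Sp100, Sp110, Sp140 and C130026I21Rik. A probe set belonged to the family when a member was its single gene symbol in the array annotation. This gave 38 of the 65535 probe sets in the deposited table and 4 of the 5109 genes that a probe set names alone: 25 probe sets for Sp100, 6 for C130026I21Rik, 4 for Sp110 and 3 for Sp140. A further 11 probe sets name a member together with other genes and were kept apart.

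Gene expression was measured on arrays in endothelial cells sorted for CD31 and CD146 from tissue of female mice. The MCA313 tumours grew in PIG-Pdgfb-Cre-IFNγ-del mice, in which the interferon gamma (IFNγ) receptor is present on endothelial cells only, through the Pdgfb-Cre driver. IFNγ release by the tumour cells was off in the 0 h controls (3 arrays) and had been switched on 24 h (2 arrays) or 48 h (2 arrays) before. The J558L tumours grew in Rag-/- mice, which carry the receptor on all cells and lack mature T and B cells. These tumour cells had been releasing IFNγ fused to GFP for 24 h (3 tumour and 3 kidney arrays) or were left uninduced at 0 h (2 tumour and 3 kidney arrays). The 16.113 tumours also grew in Rag-/- mice. Those mice had received tumour-specific T cells 120 h earlier, either IFNγ+/+ T cells (3 arrays) or IFNγ-/- T cells (5 arrays). Mice were 4 to 6 months old, or 3 to 4 months for 16.113. Replicates are numbered without a statement that each came from its own animal, so p-values measure the spread between arrays, which may be technical.

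Proteins of the Sp100 family share an amino-terminal domain that self-associates and a SAND domain that can contact DNA, and several also carry a PHD finger and a bromodomain that read chromatin. Sp100 is a resident of PML nuclear bodies, which are protein assemblies in the nucleus that enlarge under interferon. Sp140 is best known as a chromatin reader of immune cells, and mouse Sp110 was named as a factor of resistance to intracellular bacteria in macrophages. C130026I21Rik still carries a clone name, and no role is given to it here.

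The 4 genes lie on mouse chromosome 1 (RefSeq, GRCm38.p6). C130026I21Rik spans 85241286 to 85282883, Sp110 spans 85570735 to 85610850, Sp140 spans 85587491 to 85645040 and Sp100 spans 85649948 to 85709998. Sp110 and Sp140 overlap each other on opposite strands, and whether the array tells their strands apart was not tested.

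The promoter windows are shown because the members were compared for shared sequence. Each window is 300 bases of the gene's own strand, 250 before the start of a transcript and 50 after it. In the first pair the capitals mark the stretch in which the windows of Sp140 (chr1:85600453-85600752, plus strand) and C130026I21Rik (chr1:85270517-85270816, minus strand) align.

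Sp140: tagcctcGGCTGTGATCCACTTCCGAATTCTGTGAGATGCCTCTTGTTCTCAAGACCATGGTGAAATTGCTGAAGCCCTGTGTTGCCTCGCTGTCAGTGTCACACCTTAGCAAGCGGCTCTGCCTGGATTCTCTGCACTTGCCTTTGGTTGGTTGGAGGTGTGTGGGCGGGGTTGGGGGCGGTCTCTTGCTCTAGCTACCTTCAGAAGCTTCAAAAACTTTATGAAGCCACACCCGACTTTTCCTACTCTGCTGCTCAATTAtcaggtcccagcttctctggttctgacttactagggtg

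C130026I21Rik: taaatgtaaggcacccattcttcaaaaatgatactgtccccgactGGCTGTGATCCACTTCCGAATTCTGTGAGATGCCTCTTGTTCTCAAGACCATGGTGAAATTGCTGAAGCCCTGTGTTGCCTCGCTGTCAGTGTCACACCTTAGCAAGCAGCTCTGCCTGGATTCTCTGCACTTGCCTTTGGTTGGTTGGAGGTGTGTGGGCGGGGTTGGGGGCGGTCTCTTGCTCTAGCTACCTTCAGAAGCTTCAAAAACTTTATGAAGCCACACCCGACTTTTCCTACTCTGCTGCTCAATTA

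These windows matched in 254 of 255 aligned bases (99.6%), with an unbroken shared run of 146 bases. A single window of another gene in the table of 32851 windows held a run of 20 bases of that stretch. It belongs to A530032D15Rik on the same chromosome and matched the Sp140 stretch in 254 of 255 bases as well. The Sp140 and Sp100 windows aligned over 24 bases only, of which 19 matched.

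In the second pair the capitals mark a spaced version of the core of the interferon-stimulated response element, read on either strand, in a window of Sp100 (chr1:85649738-85650037, plus strand) and a window of Sp110 (chr1:85598761-85599060, minus strand).

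Sp100: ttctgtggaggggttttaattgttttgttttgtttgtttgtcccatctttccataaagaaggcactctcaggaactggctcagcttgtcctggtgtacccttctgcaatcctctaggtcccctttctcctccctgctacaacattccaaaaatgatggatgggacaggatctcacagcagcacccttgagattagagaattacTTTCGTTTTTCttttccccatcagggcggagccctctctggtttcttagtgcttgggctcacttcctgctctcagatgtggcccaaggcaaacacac

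Sp110: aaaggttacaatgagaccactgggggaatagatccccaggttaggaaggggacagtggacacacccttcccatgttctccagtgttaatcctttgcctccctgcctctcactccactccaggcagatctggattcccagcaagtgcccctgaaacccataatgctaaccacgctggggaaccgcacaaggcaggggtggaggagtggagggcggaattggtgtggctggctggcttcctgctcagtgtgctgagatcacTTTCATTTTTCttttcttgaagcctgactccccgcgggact

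None of the 6 member windows held the usual core, GAAANNGAAA, which is in 3.44% of all windows. None held the core of the gamma activation site, TTCNNNGAA, which is in 8.3% of all windows. The spaced version, GAAANNNGAAA, is in 2.75% of all windows and was looked for after the sequences had been seen. Both Sp100 windows, which overlap, and 1 of 2 Sp110 windows held it. The Sp100 and Sp110 windows aligned over 25 bases, of which 22 matched. A match is a description of letters only, and its absence says nothing of the factors.

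The deposited values are log2 expression values, and the 4 tissue sets (MCA313, J558L tumour, J558L kidney and 16.113) appear to have been normalized separately. Pairs of arrays of a set had 421 to 2650 exact values in common, on any probe sets, and pairs from different sets had 0 to 2. Levels were therefore compared within a set only. The 4 endothelial markers measured (of 16 listed) averaged 9.31 to 11.0 in all groups, against array medians of 5.62 to 6.46. The T cell markers averaged 4.35 to 5.28 and the pan leukocyte markers 4.35 to 5.66, the myeloid markers 5.02 to 6.26 and the B and plasma cell markers 5.50 to 6.34. Replicates correlated at 0.912 or more, apart from the 3 arrays with IFNγ+/+ T cells at 0.847 to 0.889.

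Across the family, every member probe set that passed the test was higher with IFNγ. A probe set was called at an adjusted p under 0.05 in limma over all 65535 probe sets. In MCA313 tumours 2 of 38 were called higher at 24 h, where 0.117% of all probe sets were, and 3 of 38 at 48 h, where 0.165% were. These 2 comparisons share their controls. In J558L tumours 3 of 38 were called higher (0.0687% of all), in J558L kidneys 5 of 38 (0.534% of all) and in 16.113 tumours 7 of 38 (0.777% of all). All 20 calls fell in Sp140, C130026I21Rik and Sp100, and no probe set of Sp110 was called.

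These counts are small and move with single arrays. In J558L tumours none was called without replicate 1 at 0 h and 1 without any other array of the set, and in kidneys 2 or 3 were called without any 1 of the 6 arrays. In MCA313 tumours 1 was called at 24 h without replicate 1 at 0 h or replicate 2 at 24 h, and 1 at 48 h without replicate 1 at 48 h. With each set fitted alone, 2 member probe sets were called in 16.113 tumours and 0 in the other sets.

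Direction was shared more widely than calls. Of the 38 probe sets 25 are of Sp100, and all share their arrays. The counts and medians below are therefore not of independent readings and lean on Sp100. The fitted difference was above 0 for 35 of 38 member probe sets in MCA313 tumours at 24 h (47.6% of all probe sets), for 38 at 48 h (47.8% of all) and for 36 in J558L tumours (48.2% of all). It was above 0 for 35 in J558L kidneys (49.2% of all) and for 37 in 16.113 tumours (48.8% of all). The median log2 difference of the 38 was 0.54 in MCA313 tumours at both times, 0.63 in J558L tumours, 0.62 in J558L kidneys and 0.84 in 16.113 tumours. The medians of all probe sets lay between -0.03 and -0.01.

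**Figure D1:**
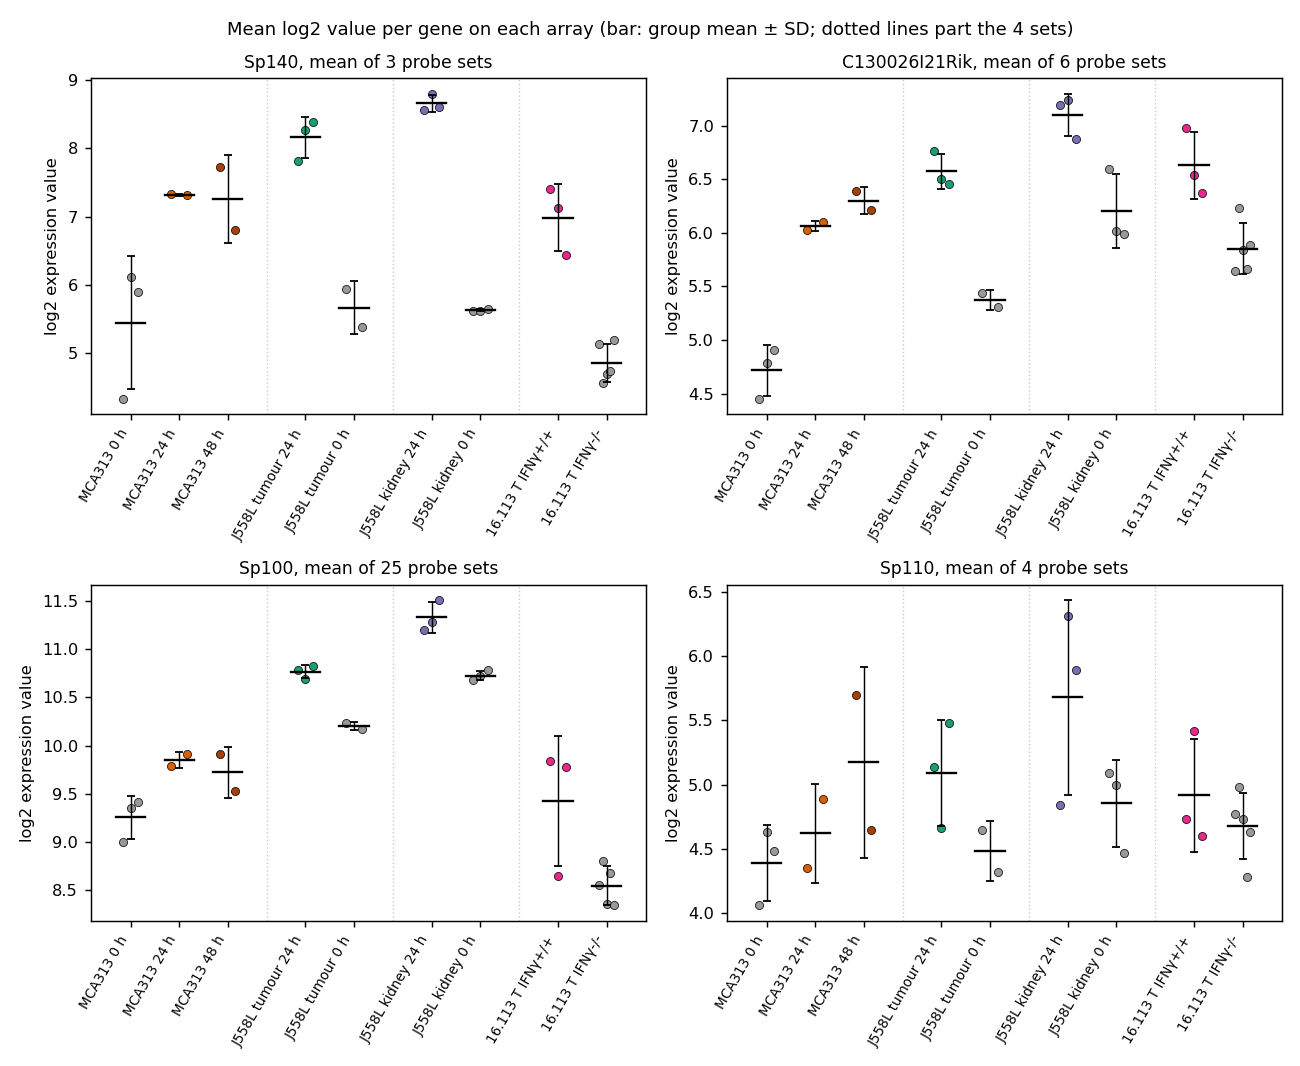
Mean log2 expression value of each gene on each array (y axis), averaged over the gene's probe sets, by group (x axis). Points are arrays, bars are group means ± SD, and dotted lines part the 4 separately normalized sets. Sp140 and C130026I21Rik separate exposed from unexposed arrays in each set. Sp110 does so narrowly in J558L tumours (4.66 against 4.65) and in MCA313 tumours at 48 h (4.65 against 4.63), and overlaps elsewhere. In 16.113 tumours 1 array with IFNγ+/+ T cells has an Sp100 value of 8.65 among the unexposed ones.

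Sp140 had the largest response of the family in its gene mean, the average of its 3 probe sets. In MCA313 tumours the mean was 4.33, 6.11 and 5.90 at 0 h, 7.33 and 7.31 at 24 h, and 7.72 and 6.81 at 48 h. In J558L tumours it was 7.82, 8.27 and 8.39 at 24 h, against 5.94 and 5.39 at 0 h. Every exposed array lay above every unexposed array of its set.

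In J558L kidneys the Sp140 mean was 8.56, 8.80 and 8.61 at 24 h, against 5.62, 5.62 and 5.65 at 0 h. In 16.113 tumours it was 7.40, 7.12 and 6.44 with IFNγ+/+ T cells, against 5.13, 4.56, 4.70, 4.74 and 5.19 with IFNγ-/- T cells. No groups overlapped in either set. The share of all gene means separated in this way was not counted for any of the sets.

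The Sp140 gene mean passed the test in all 5 comparisons with a control (limma, Benjamini-Hochberg over 5109 genes). Its log2 difference was 1.87 ± 0.38 in MCA313 tumours at 24 h (SE; adjusted p = 0.00814), where 1.14% of all gene means were called higher. It was 1.82 ± 0.38 at 48 h (adjusted p = 0.00803, with 1.14% of all called higher) and 2.49 ± 0.38 in J558L tumours (adjusted p = 0.000634, with 0.822%). It reached 3.02 ± 0.34 in J558L kidneys, an 8.14-fold difference (adjusted p = 5.53e-06, with 2.68%). In 16.113 tumours it was 2.12 ± 0.30 (adjusted p = 0.000114, with 2.43%). By size of difference Sp140 ranked between 4 and 18 of the 5109 genes in these 5 comparisons.

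The 2 MCA313 calls for Sp140 rest on few arrays. Without replicate 1 of the 0 h arrays, the lowest of them, the differences were 1.31 at 24 h (adjusted p = 0.0433) and 1.26 at 48 h (adjusted p = 0.0437). The 24 h call ended without replicate 1 at 24 h (adjusted p = 0.0592) or replicate 2 (adjusted p = 0.116), and the 48 h call without replicate 1 at 48 h (adjusted p = 0.274). That 0 h replicate was also lowest in the mean level of 33 other genes listed as interferon-inducible. This level was 6.72, against 7.37 and 7.57 in the other 0 h arrays. The part of that replicate in the result was not tested.

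Of the 3 Sp140 probe sets 1 is bright and 2 are dim. Probe set 17214946 exceeded the median of its array in all 26 arrays. Probe sets 17214925 and 17214930 did so in 7 and 8 arrays, so the sizes of their differences are uncertain. All 3 were above 0 in each of the 5 comparisons.

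The bright probe set 17214946 read 7.01, 9.93 and 9.41 in MCA313 tumours at 0 h, 10.84 and 10.95 at 24 h, and 11.02 and 10.93 at 48 h. In J558L kidneys it read 11.72, 11.93 and 11.92 at 24 h, against 9.33, 9.19 and 9.28 at 0 h. The first MCA313 control array stood far below the other 2. The groups did not overlap, as for 11.5% of all probe sets in MCA313 tumours at 24 h, 12.1% at 48 h and 7.82% in kidneys. The log2 difference of 17214946 was 2.59 ± 0.44 in kidneys (adjusted p = 0.0054) and 1.98 ± 0.40 in 16.113 tumours (adjusted p = 0.0114). It was not called in J558L tumours (2.19 ± 0.49, adjusted p = 0.127) or in MCA313 tumours at 24 h (2.12 ± 0.49, adjusted p = 0.104) or 48 h (2.19 ± 0.49, adjusted p = 0.0687).

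Probe set 17214930 was called in 4 of the 5 comparisons. In J558L tumours it read 6.70, 6.41 and 6.94 at 24 h, against 3.00 and 3.78 at 0 h. In 16.113 tumours it read 5.63, 5.69 and 4.75 with IFNγ+/+ T cells, against 2.12, 1.90, 2.27, 2.14 and 2.93 with IFNγ-/- T cells. The unexposed arrays of both sets are near the low end of the array's range, where the lowest value of the table is 1.4. The log2 differences were 2.53 in MCA313 tumours at 48 h (adjusted p = 0.0275), 3.29 in J558L tumours (adjusted p = 0.00819), 3.67 in kidneys (adjusted p = 0.000189) and 3.08 in 16.113 tumours (adjusted p = 0.000225). The kidney and 16.113 calls held without each array in turn, and those in MCA313 and J558L tumours did not.

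Probe set 17214925 was called in kidneys only (2.81 ± 0.61, adjusted p = 0.0274), a call that did not hold without each array in turn. In J558L tumours it read 5.52, 7.12 and 6.56 at 24 h, against 5.59 and 3.20 at 0 h, so the groups overlapped there.

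**Figure D2:**
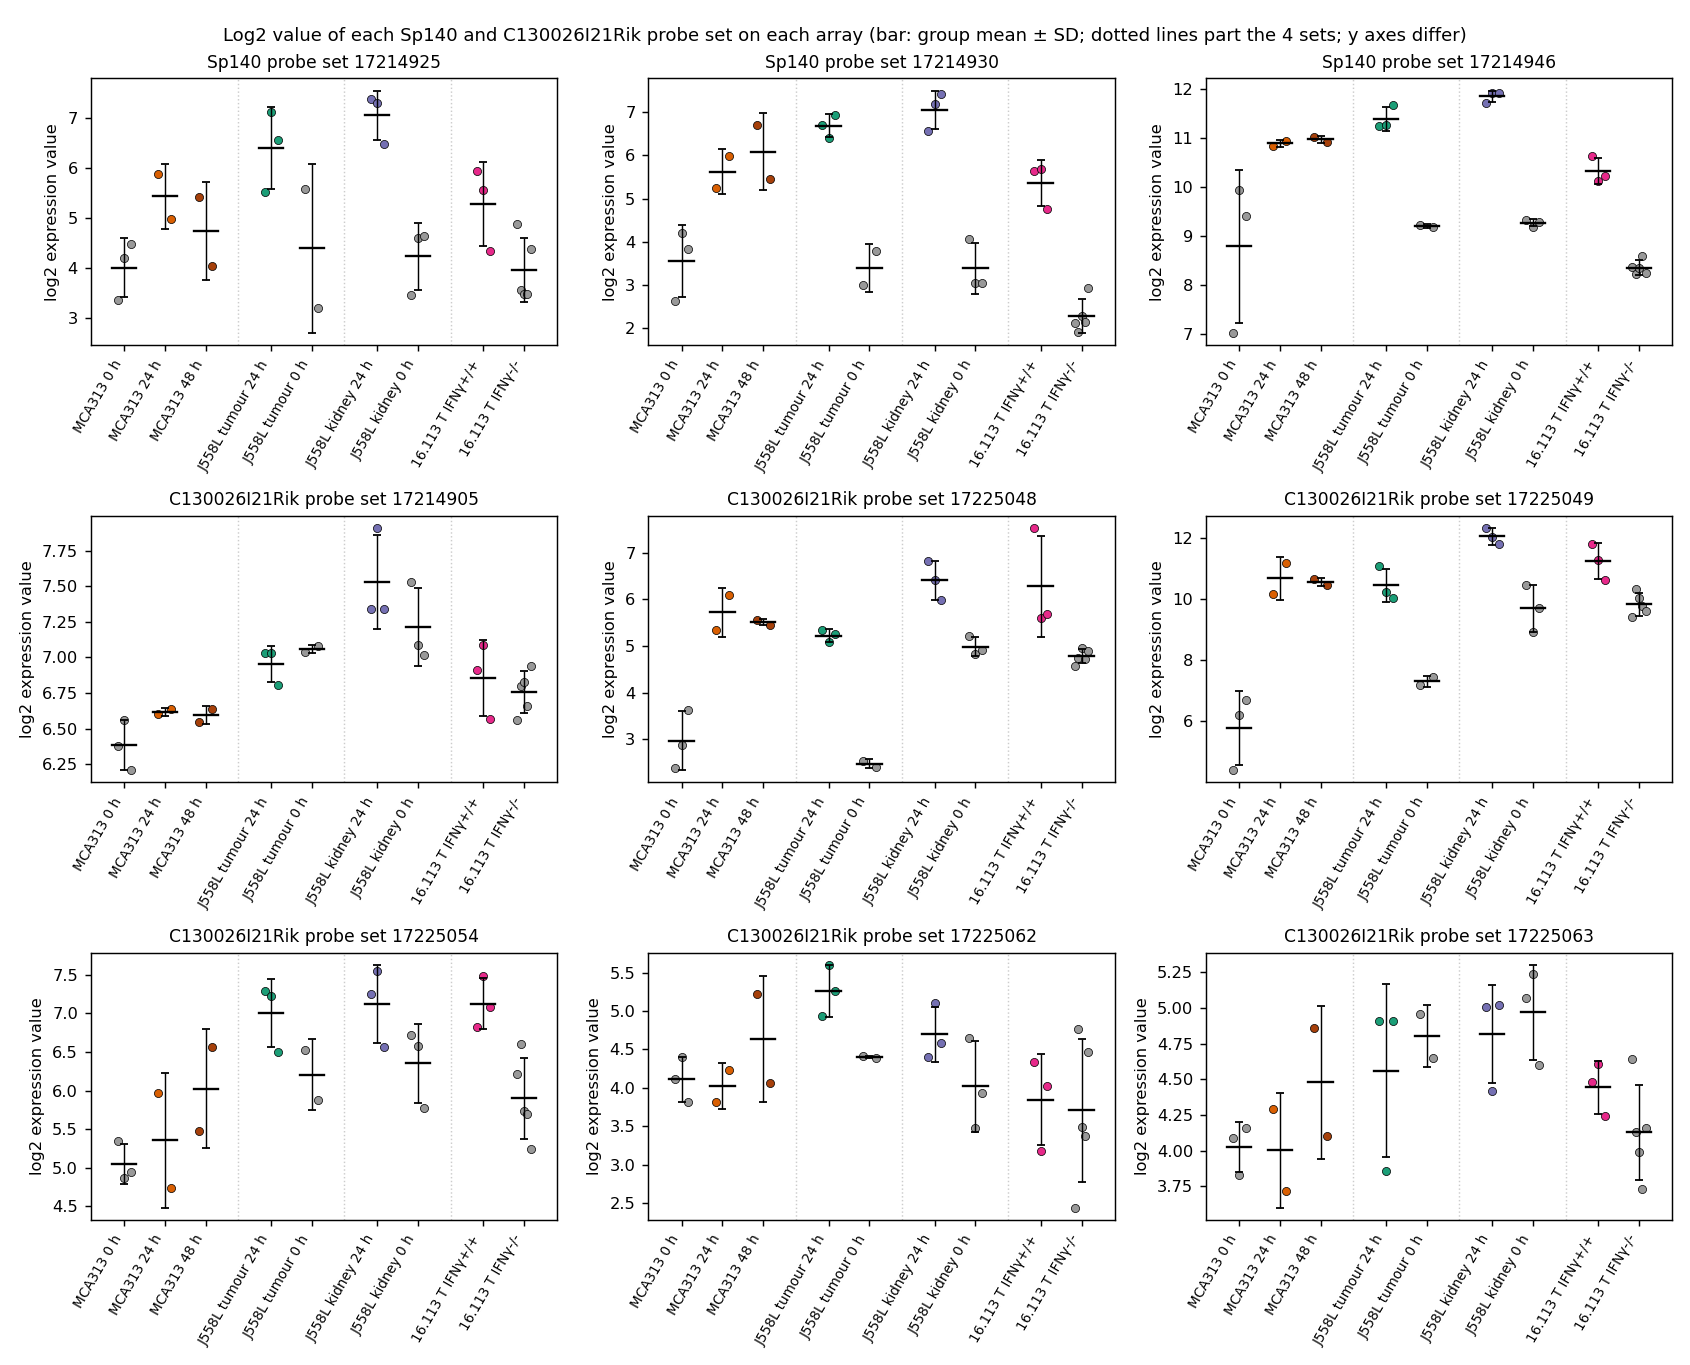
Log2 expression value (y axis, with its own range in each panel) of the 3 Sp140 and 6 C130026I21Rik probe sets on each array, by group (x axis). Points are arrays, bars are group means ± SD, and dotted lines part the sets. All 3 Sp140 probe sets have higher group means with IFNγ in every set, whereas 17225048 and 17225049 are the only C130026I21Rik probe sets with a called difference.

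C130026I21Rik held the largest single difference of the family. Its probe set 17225049 read 4.40, 6.21 and 6.70 in MCA313 tumours at 0 h, 10.18 and 11.18 at 24 h, and 10.65 and 10.46 at 48 h. The exposed arrays were more than 3 log2 units above the highest unexposed one. The log2 difference was 4.91 ± 0.55 at 24 h, a 30-fold difference (adjusted p = 0.000448), and 4.79 ± 0.55 at 48 h (adjusted p = 0.000206). These calls held without each array in turn.

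The same probe set read 11.07, 10.22 and 10.04 in J558L tumours at 24 h, against 7.18 and 7.44 at 0 h. In J558L kidneys it read 12.33, 12.02 and 11.79 at 24 h, against 10.45, 8.93 and 9.71 at 0 h. In 16.113 tumours it read 11.80, 11.28 and 10.63 with IFNγ+/+ T cells, against 9.40, 10.33, 10.04, 9.76 and 9.60 with IFNγ-/- T cells. No groups overlapped, although the gap in 16.113 tumours was narrow. The same held for 11.4% of all probe sets in J558L tumours, 7.82% in kidneys and 2.75% in 16.113 tumours. The log2 difference was 3.14 ± 0.55 in J558L tumours (adjusted p = 0.0251) and 2.35 ± 0.49 in kidneys (adjusted p = 0.0214), while 1.41 ± 0.44 in 16.113 tumours missed the threshold (adjusted p = 0.11). Unlike the MCA313 calls, those in J558L tumours and kidneys did not hold without each array in turn.

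Probe set 17225048 gave another reading in the same direction. It read 2.39, 2.88 and 3.64 in MCA313 tumours at 0 h, 5.35 and 6.09 at 24 h, and 5.56 and 5.46 at 48 h. In J558L tumours it read 5.34, 5.08 and 5.25 at 24 h, against 2.55 and 2.41 at 0 h. All of these values lie around or below the array medians, so the sizes are uncertain. It was called in MCA313 tumours at 24 h (2.75 ± 0.44, adjusted p = 0.00755) and 48 h (2.54 ± 0.44, adjusted p = 0.0129). It was also called in J558L tumours (2.74 ± 0.44, adjusted p = 0.0142) and in 16.113 tumours (1.5 ± 0.35, adjusted p = 0.0284), but not in kidneys (1.42 ± 0.39, adjusted p = 0.11). In 16.113 tumours it read 7.53, 5.61 and 5.69 with IFNγ+/+ T cells, against 4.58, 4.74, 4.96, 4.73 and 4.89 with IFNγ-/- T cells. Without 1 array the difference there ran from 0.875 to 1.835. None of the calls of 17225048 held without each array in turn.

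The other 4 probe sets of C130026I21Rik did not pass the test in any comparison. Probe set 17214905, above the median of every array, stayed between 6.21 and 7.91 on all 26 arrays, with differences of -0.10 to 0.32. Its identifier lies near those of Sp140 and Sp100 and apart from the other 5 C130026I21Rik probe sets. In MCA313 tumours 17214905 read 6.60 and 6.64 at 24 h, against 6.38, 6.56 and 6.21 at 0 h. These groups did not overlap, as for 11.5% of all probe sets in that direction. In J558L tumours its groups did not overlap in the opposite direction, at 7.03, 7.03 and 6.81 at 24 h, against 7.04 and 7.08 at 0 h. The share of all probe sets lower in this way is not given here. Probe sets 17225062 and 17225063 never exceeded the array median. Probe set 17225054 was nearest to the threshold in 16.113 tumours (1.22 ± 0.37, adjusted p = 0.0948).

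The gene mean of C130026I21Rik, which weighs these 6 readings alike, passed the test in all 5 comparisons. Its log2 difference was 1.35 ± 0.21 in MCA313 tumours at 24 h (adjusted p = 0.00122), 1.58 ± 0.21 at 48 h (adjusted p = 0.000135) and 1.2 ± 0.21 in J558L tumours (adjusted p = 0.0041). It was 0.90 ± 0.19 in kidneys (adjusted p = 0.00431) and 0.78 ± 0.17 in 16.113 tumours (adjusted p = 0.0053). The J558L tumour call ended without replicate 1 of the 0 h arrays (adjusted p = 0.061) and with the median of the probe sets in place of their mean (0.62, adjusted p = 0.517).

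Sp100 was bright and moved little. Of its 25 probe sets, 20 exceeded the array median on all 26 arrays and 1 on none. The fitted difference was above 0 for all 25 in MCA313 tumours at 24 h and 48 h, in J558L tumours and in 16.113 tumours, and for 24 of 25 in kidneys. The median log2 difference of the 25 was 0.58 in MCA313 tumours at 24 h and 0.41 at 48 h. It was 0.59 in J558L tumours, 0.52 in kidneys and 0.86 in 16.113 tumours.

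The Sp100 groups often did not overlap where no call was made. Exposed arrays all lay above unexposed ones for 21 of 25 probe sets in MCA313 tumours at 24 h (11.5% of all probe sets), for 15 at 48 h (12.1% of all), for 21 in J558L tumours (11.4% of all) and for 20 in kidneys (7.82% of all). In 16.113 tumours this held for 6 of 25 (2.75% of all). The gene mean shows the same: it was 10.78, 10.69 and 10.83 in J558L tumours at 24 h, against 10.23 and 10.17 at 0 h.

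In J558L kidneys the Sp100 mean was 11.20, 11.28 and 11.51 at 24 h, against 10.68, 10.72 and 10.78 at 0 h. In MCA313 tumours it was 9.0, 9.35 and 9.41 at 0 h, 9.79 and 9.91 at 24 h, and 9.91 and 9.53 at 48 h. Small gaps thus separated the groups in all 3 induced sets. The share of all gene means separated in this way was not counted. Among all probe sets it was 7.82% to 12.1% in these sets. The log2 difference did not pass the test in MCA313 tumours at 24 h (0.59, 95% interval 0.09 to 1.10, adjusted p = 0.249) or 48 h (0.47, -0.04 to 0.97, adjusted p = 0.415). It did not pass in J558L tumours (0.56, 0.06 to 1.07, adjusted p = 0.399) or in kidneys (0.61, 0.16 to 1.06, adjusted p = 0.123) either.

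In 16.113 tumours Sp100 was called, and 1 array went against the others. The mean was 9.84, 8.65 and 9.78 with IFNγ+/+ T cells, against 8.55, 8.80, 8.35, 8.68 and 8.34 with IFNγ-/- T cells. Replicate 2 with IFNγ+/+ T cells lay within the range of the arrays with IFNγ-/- T cells. The log2 difference was 0.88 ± 0.19 (adjusted p = 0.00624), or 1.27 without replicate 2 (adjusted p = 1.47e-05) and 0.70 without replicate 3 (adjusted p = 0.0655). The count of member probe sets called in 16.113 tumours was 22 without replicate 2, and 4 without replicate 1 or replicate 3, in place of 7. In the mean level of the other genes listed as interferon-inducible, replicate 2 was not within the range with IFNγ-/- T cells. That level was 7.81, against 6.72 to 7.06 with IFNγ-/- T cells and 8.34 and 8.04 in the other arrays with IFNγ+/+ T cells.

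**Figure D3:**
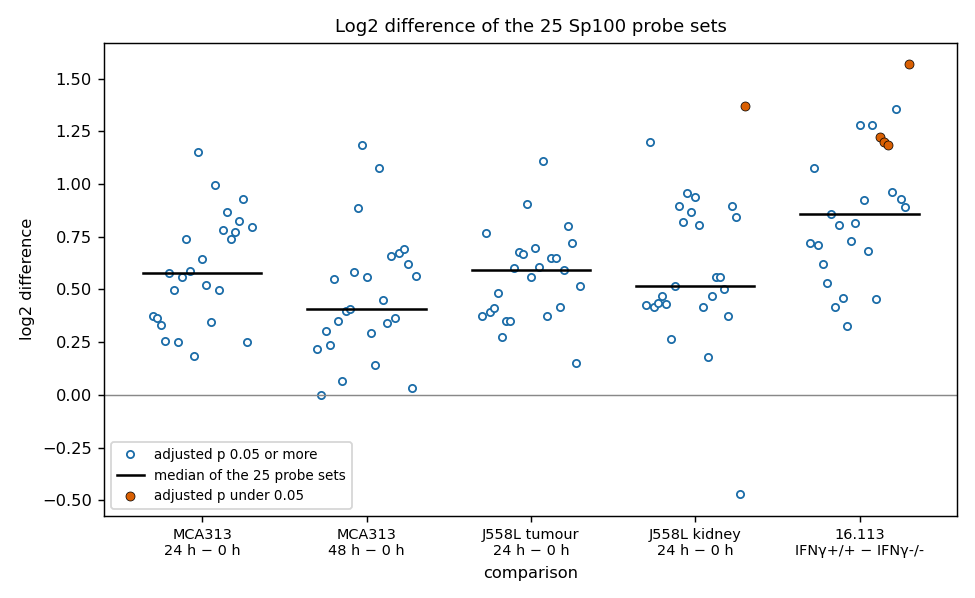
Log2 difference (y axis) of the 25 Sp100 probe sets, in order of their identifiers, in each comparison with a control (x axis). Filled points passed the test, open points did not, and the bar is the median, which lies between 0.41 and 0.86. All points but 1, in kidneys, are above 0.

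The called Sp100 probe sets were 17214972 (1.22 ± 0.28, adjusted p = 0.0258), 17214974 (1.2 ± 0.28, adjusted p = 0.0292), 17214975 (1.18 ± 0.23, adjusted p = 0.01) and 17225083 (1.57 ± 0.26, adjusted p = 0.00235) in 16.113 tumours. Probe set 17225083 was also the only one called in kidneys (1.37 ± 0.29, adjusted p = 0.0209). Its identifier lies among those of C130026I21Rik and Sp110 and apart from the other 24 Sp100 probe sets. It read 9.76, 9.80 and 9.94 in kidneys at 24 h, against 7.85, 8.62 and 8.93 at 0 h. In 16.113 tumours it read 7.14, 6.52 and 6.88 with IFNγ+/+ T cells, against 5.71, 5.08, 4.85, 5.17 and 5.59 with IFNγ-/- T cells. Here, unlike in the gene mean, replicate 2 lay above every array with IFNγ-/- T cells. Of the Sp100 probe set calls, only that of 17225083 in 16.113 tumours held without each array in turn.

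Among the 20 Sp100 probe sets above the median on all arrays, brighter ones tended to have smaller differences. Pearson's r between the difference and the mean level was -0.68 in MCA313 tumours at 24 h, -0.66 at 48 h, -0.53 in J558L tumours and -0.68 in kidneys, but -0.08 in 16.113 tumours. These 20 points share their arrays, and both axes come from the same values, so the coefficients are descriptions. The brightest Sp100 probe set alone gave 0.42 in 16.113 tumours and was not called (adjusted p = 0.214). The 2 Sp100 probe sets that did not exceed the array median in at least 2 arrays were 17214963, at 1.90 to 6.19, and 17214980, at 2.71 to 5.72.

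Sp110 rested on 1 bright probe set. Probe set 17225101 exceeded the array median on all arrays. It read 10.39, 10.52 and 10.61 in J558L kidneys at 24 h, against 10.03, 9.88 and 10.28 at 0 h. In J558L tumours it read 9.76, 9.82 and 10.06 at 24 h, against 9.47 and 8.84 at 0 h. The groups did not overlap in these sets, as for 7.82% of all probe sets in kidneys and 11.4% in J558L tumours in that direction. The log2 differences, 0.45 ± 0.34 and 0.72 ± 0.38, did not pass the test (adjusted p = 0.759 and 1). In MCA313 tumours it read 8.74, 10.13 and 9.61 at 0 h, 9.40 and 10.52 at 24 h, and 10.66 and 9.62 at 48 h, so the groups overlapped. They overlapped in 16.113 tumours as well, at 10.25, 10.70 and 10.81 with IFNγ+/+ T cells, against 9.78 to 10.35 with IFNγ-/- T cells.

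The other Sp110 probe sets, 17225099, 17225105 and 17225106, lay at the low end of the array's range on most arrays, with some high arrays. Probe set 17225105 read 6.43 and 2.47 in MCA313 tumours at 48 h, and 17225099 read 3.65, 7.03 and 3.90 in kidneys at 24 h. In kidneys 17225105 read 2.92, 5.19 and 5.92 at 24 h, against 2.99, 3.37 and 2.31 at 0 h. The fitted kidney differences were 1.56 for 17225099, 1.78 for 17225105 and -0.47 for 17225106, beside 0.45 for the bright 17225101. The Sp110 gene mean was 4.84, 6.31 and 5.89 in kidneys at 24 h, against 5.09, 5.00 and 4.47 at 0 h. It was not called there (0.83, 95% interval 0.15 to 1.51, adjusted p = 0.171), nor in MCA313 tumours at 24 h (0.23, -0.52 to 0.99) or 48 h (0.79, 0.03 to 1.54), J558L tumours (0.61, -0.15 to 1.37) or 16.113 tumours (0.24, -0.37 to 0.84). Without replicate 1 of the kidney arrays at 24 h it was called in kidneys (1.25, adjusted p = 0.0227).

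**Figure D4:**
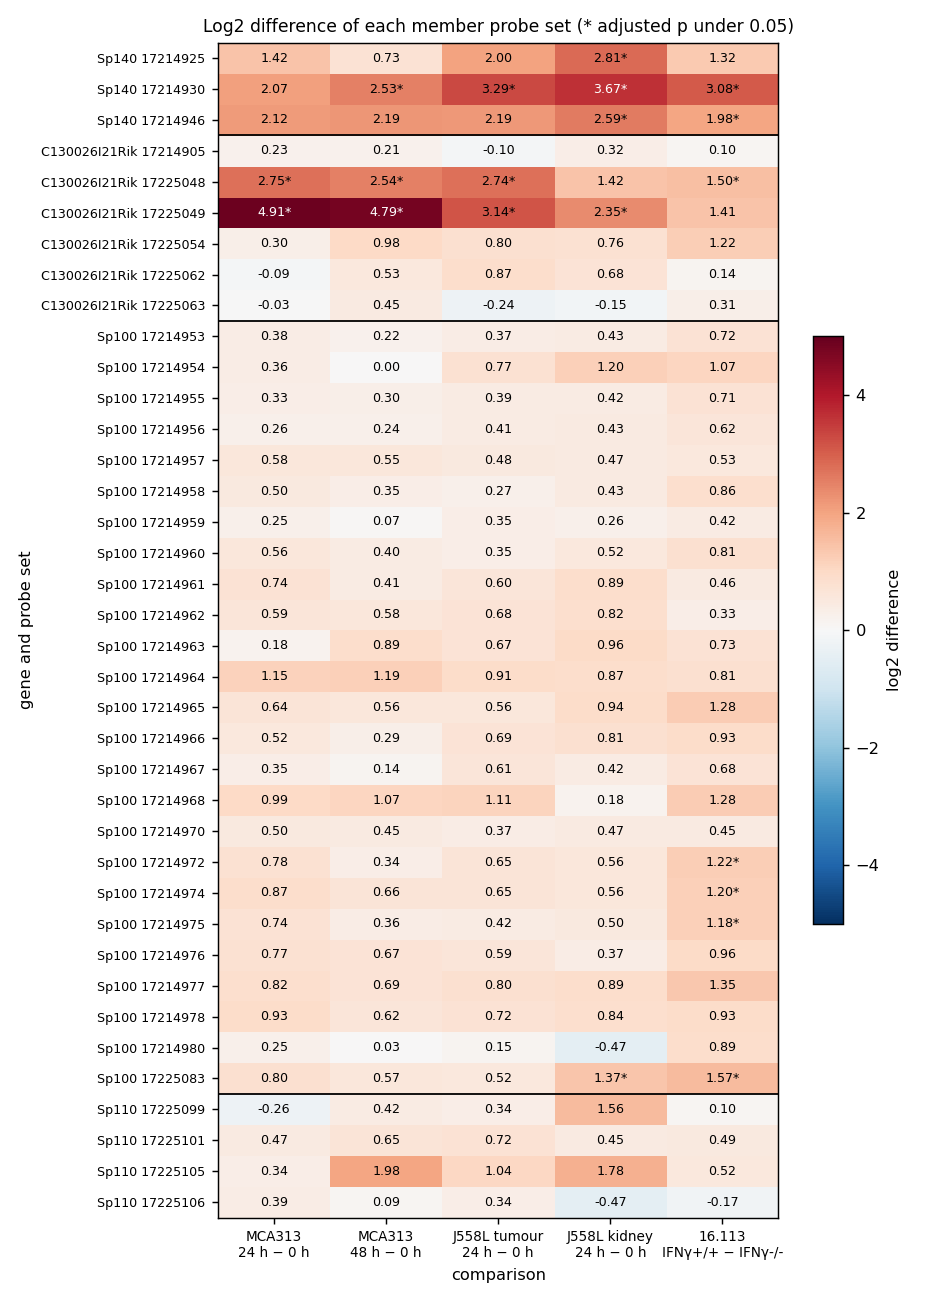
Fitted log2 difference of the 38 member probe sets (rows, by gene) in each comparison with a control (columns), as colour and number. An asterisk marks an adjusted p under 0.05, which 20 of the cells carry, all of them positive and none in Sp110.

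Time of exposure was compared in MCA313 tumours. At 48 h over 24 h no member probe set was called (0.0061% of all were) and none had an unadjusted p under 0.05 (5.38% of all did), with 2 arrays on either side. No gene mean of the family was called (0.0196% of all were). The gene mean difference was -0.05 for Sp140 (95% interval -0.90 to 0.80), 0.24 for C130026I21Rik (-0.24 to 0.71), -0.13 for Sp100 (-0.68 to 0.42) and 0.55 for Sp110 (-0.28 to 1.38). These intervals leave room for differences of more than 1.5-fold.

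The tumour and kidney of J558L-bearing mice were compared through their responses. No member probe set differed after adjustment (0.00305% of all did), and 1 had an unadjusted p under 0.05 (4.52% of all did). Of all gene means 0.254% were called, none in the family. For Sp140 the tumour response was lower than the kidney response by a fitted -0.53 on the log2 scale (95% interval -1.58 to 0.51, adjusted p = 0.922). For C130026I21Rik it was higher by 0.30 (-0.28 to 0.89, adjusted p = 0.915). Probe set 17225048 of C130026I21Rik was the one with the unadjusted p, at 1.32 ± 0.59 (adjusted p = 1).

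Between models no member was called either. For the MCA313 response at 24 h against the J558L tumour response (0.00153% of all probe sets called) 1 member probe set had an unadjusted p under 0.05 (3.53% of all did), and 0.0196% of all gene means were called. That was 17225049 of C130026I21Rik, with a response larger by 1.77 ± 0.78. For the 16.113 response against the J558L tumour response limma called no probe set or gene mean at all (0%), and 3 member probe sets had an unadjusted p under 0.05 (5.35% of all did). Of these, 17225048 and 17225049 of C130026I21Rik had smaller responses, at -1.24 ± 0.56 and -1.73 ± 0.70, and 17225083 of Sp100 had a larger one, at 1.05 ± 0.41. The Sp140 mean differed by -0.62 between MCA313 and J558L tumours (95% interval -1.73 to 0.48) and by -0.37 between 16.113 and J558L tumours (-1.36 to 0.63).

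The genes most like each member over the 26 arrays, after the mean of each set was subtracted, are given by Pearson's r as a description, since all arrays share the same exposure contrast. Sp140 was most like Nampt (0.956), the enzyme of NAD salvage, Ifi206 (0.952) and Slamf8 (0.946). C130026I21Rik was most like Ifi207 (0.963), Slamf8 (0.940) and Ifi205 (0.917). Sp100 was most like Rnf213 (0.930), Lgals9 (0.910), which encodes galectin-9, and Slfn5 (0.906). Sp110 reached lower values, with Smcr8 (0.757), 2410006H16Rik (0.751) and Snhg6 (0.668).

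Between members, r was 0.867 for Sp140 with C130026I21Rik, 0.780 for Sp100 with Sp140 and 0.736 for Sp100 with C130026I21Rik. Sp110 reached 0.646 with Sp140, 0.608 with C130026I21Rik and 0.392 with Sp100. Genes outside the family were often more alike. Ranked among them by r with C130026I21Rik, Sp140 took rank 12, Sp100 rank 82 and Sp110 rank 166. By r with Sp140, Sp100 took rank 82 and Sp110 rank 154. By r with Sp110, Sp100 took rank 414.

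Partners of the family in PML bodies and chromatin were described through a list. Of 40 listed genes 9 were measured, namely Asf1a, Cabin1, Cbx1, H3f3b, Mdm2, Rad50, Rpa1, Sumo2 and Sumo3. None of the 9 was called higher in any comparison. In the comparisons with a control 0.822% to 2.68% of all gene means were called higher, so a count of 0 of 9 is near that share. Rad50, of the complex that processes broken DNA ends, fell by 0.89 in 16.113 tumours (log2, adjusted p = 0.0123). The median of the 9 lay between -0.21 and 0.00, beside -0.01 to 0.00 for all genes.

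Other genes, listed as interferon-inducible, were read from a further list, of which 33 were measured. Of these, 14 were called higher in MCA313 tumours at 24 h (1.14% of all gene means), 11 at 48 h (1.14%), 5 in J558L tumours (0.822%), 21 in kidneys (2.68%) and 23 in 16.113 tumours (2.43%). Aim2 fell by 0.85 and Ifi202b by 0.69 in 16.113 tumours. The median log2 difference of the 33 lay between 0.92 and 1.17, beside -0.01 to 0.00 for all genes. Genes on the list include Irf4, with 3.63 in MCA313 tumours at 24 h and 3.56 in J558L tumours. Another is Ifi205, with 4.17 in kidneys and 1.58 in 16.113 tumours. Being listed does not show that interferon induces a gene. Among 17 measured genes next to the family on chromosome 1, 2 were called higher in 16.113 tumours (2.43% of all gene means). These were B3gnt7 (0.54, adjusted p = 0.0125) and Gm7609 (0.91, adjusted p = 0.0168). None was called in the other comparisons with a control, where 0.822% to 2.68% of all gene means were called higher.

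Leukocytes also express Sp140 and Sp100, so their markers were read on the same arrays. The lists held 7 measured myeloid, 6 T cell, 10 B and plasma cell and 4 pan leukocyte genes. None was called in the MCA313 or J558L tumour sets, where 1.14% and 0.822% of all gene means were called higher. With so few genes the absence of a call is near those shares. In kidneys Cd48 rose by 0.77 (adjusted p = 0.0355) and the endothelial marker Ptprb fell by 0.67 (adjusted p = 0.00353). In 16.113 tumours Cd48 rose by 0.70 and Ikzf3 by 0.78, and Sdc1 fell by 0.84 (adjusted p = 0.0232, 0.0457 and 0.00208). The pan leukocyte mean level was 4.79 to 5.50 in kidneys at 24 h, against 4.83 to 5.08 at 0 h. In 16.113 tumours it was 4.87 to 5.66 with IFNγ+/+ T cells, against 4.43 to 4.94 with IFNγ-/- T cells. The T cell marker level there was 4.59 to 5.10, against 4.54 to 4.72. Median log2 differences in 16.113 tumours were 0.399 for the pan leukocyte, 0.215 for the T cell, 0.114 for the B and plasma cell and -0.099 for the myeloid genes. The part of leukocytes in the family's values was not tested. In such sorted bulk samples fewer cells of a type and less RNA per cell cannot be told apart.

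The 11 probe sets that name a member together with other genes were not assigned to any gene. Of these, 1 was called higher in MCA313 tumours at 24 h (0.117% of all probe sets) and 1 at 48 h (0.165%). In J558L tumours 2 were called higher (0.0687%), in kidneys 4 (0.534%) and in 16.113 tumours 3 (0.777%), and none was called lower.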

How the data were processed

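Endothelial RNA from 26 samples, about 500 pg each from 5000 to 15000 sorted cells, was amplified with 12 cycles and hybridised to arrays, per the labels' protocols. The values are the authors' deposited log2 expression values per probe set. Affymetrix Expression Console and limma are named per the submitters' processing notes. Their versions and the normalization method are not given in the sources used here.

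Gene symbols came from the array annotation, updated through RefSeq (GRCm38.p6), in which all 38 member probe sets matched a current symbol. The table ends at 65535 probe sets, so most genes were not analysed here. No column of another sample was present. Background was not measured, and the number of arrays limits the precision.

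All 26 arrays entered 1 fit with a mean for each of the 9 groups (limma 3.58.1 in R 4.3.3), per probe set and per gene mean, with two-sided moderated tests, 95% intervals and Benjamini-Hochberg adjustment at 0.05 over all 65535 probe sets or 5109 genes. No filter on low values was applied. A filter that kept values above the array median in at least 2 arrays would have passed 31 of 38 member probe sets and 3 of 4 member genes. The fit was tested on simulated data.

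All member probe sets are named. Other genes are the 3 with the highest r to each member and those of the lists that passed the test, plus examples. A530032D15Rik, whose window matched, and the list genes used as examples were chosen after their values were seen. The members and lists were chosen with earlier results of these data known. Alternatives were the filter, quantile normalization, a trended, robust variance prior, weights per array, a replicate block, each set alone, the brightest or the median probe set, and leaving out each array. The spaced promoter motif was added after the sequences were seen.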

Additional observations from a re-analysis of the deposited data

Results flagged for a closer look

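In the 5 arrays of 16.113 tumours with IFNγ-/- T cells, 3 of 42 member values (38 probe sets and 4 gene means) had 1 array far from the other 4, where chance flags about 1 in 20. All 3 were Sp100 probe sets. Probe set 17214953 read 11.37 in replicate 2 and 10.71 to 10.84 in the others. Probe set 17214963 read 3.63 in replicate 4 and 2.10 to 2.49 in the others. Probe set 17214980 read 3.28 in replicate 3 and 3.77 to 3.96 in the others. A different replicate stood apart each time, and the last 2 probe sets are dim ones.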

How the results depend on the processing

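The fitted differences of the 20 called member probe sets kept their direction under all 246 combinations of result and alternative, and the call in 170 of these. The calls of 7 held without each array in turn. The count of calls in 16.113 tumours, 7 in the report, was 12 with the filter, 12 with quantile normalization, 11 with trend and robust estimation and 4 with array weights. With the arrays of each set fitted alone it was 2 there and 0 in MCA313 tumours at 24 h, MCA313 tumours at 48 h, J558L tumours and kidneys; those fits hold fewer arrays. Without 1 array the counts were 1 to 3 in MCA313 tumours at 24 h, 1 to 4 at 48 h, 0 to 1 in J558L tumours, 2 to 3 in kidneys and 4 to 22 in 16.113 tumours. The other 4 comparisons gave 0 throughout.

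Samples with the same replicate number did not deviate together (r between -0.06 and 0.04 over probe sets), so the numbers were not taken as pairs. With the replicate block the counts were 2 in MCA313 tumours at 24 h, 2 at 48 h, 1 in J558L tumours, 2 in kidneys and 3 in 16.113 tumours.

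Of 279 gene mean results under alternatives that keep all arrays 259 kept direction and side of the threshold, 10 lost the call and none gained one. Another 10 changed sign, none called on either side. For 48 h over 24 h these were Sp140 (0.078 with the brightest probe set, 0.14 with the median) and C130026I21Rik (-0.12, brightest). For J558L tumour against kidney they were Sp100 (0.086 brightest, 0.064 median), Sp110 (0.27, brightest) and C130026I21Rik (-0.40, median). For MCA313 against J558L they were Sp100 (-0.097 brightest, -0.001 median), and for 16.113 against J558L C130026I21Rik (0.48, median).

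Without 1 array, uncalled signs changed within these ranges: Sp100 from -0.10 to 0.11 for MCA313 against J558L, -0.32 to 0.06 for 48 h over 24 h and -0.11 to 0.05 for tumour against kidney. Sp140 ran from -0.51 to 0.40 for 48 h over 24 h. Sp110 ran from -0.034 to 0.501 in MCA313 tumours at 24 h, -0.642 to 0.093 for tumour against kidney and -0.012 to 0.396 in 16.113 tumours. Beyond the calls named in the report, each set alone ended those of the Sp140 mean in MCA313 tumours (adjusted p = 0.139 at 24 h and 0.132 at 48 h), of C130026I21Rik in kidneys (0.061) and 16.113 tumours (0.0549) and of Sp100 in 16.113 tumours (0.111). The brightest probe set ended that of C130026I21Rik in 16.113 tumours (0.0563), and the median those of Sp140 (0.0551) and C130026I21Rik (0.0617) in MCA313 tumours at 24 h. Where not stated, the cause was not tested.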
